A study of Rattus norvegicus with 2 samples.

Results

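Expression of 9 enzymes of glycolysis and acetyl-CoA supply was followed in human IAPP transgenic (HIP) rats and in nondiabetic wild-type rats. The enzymes were Pfkl, Pfkfb3, Aldoa, Gapdh, Pgk1, Pgam1, Eno1, Ldha and Acly. They were chosen with earlier results of these data known. Spots were picked by name, as every gene spot of the array whose gene name is 1 of these symbols or an older form. This gave 39 of 43379 gene spots, in 12 different probes, and all 9 genes were among the 27872 genes tested. Pgam1, Gapdh and Eno1 had 2 probes each and the other 6 genes had 1. The probes of Pgk1 and Ldha and the second probe of Gapdh were each printed in 10 spots, while the other 9 probes had a single spot.

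The series holds 4 extracts on 2 two-colour arrays. Array 1 compared wild-type extract 1 (Cy3 dye) with HIP extract 1 (Cy5 dye), and array 2 compared wild-type extract 2 with HIP extract 2, dyed in the same way. HIP rats express human IAPP, islet amyloid polypeptide, from a transgene; IAPP is a hormone that beta cells release with insulin and whose human form aggregates into amyloid. Nothing else about either genotype is stated, and the wild-type rats are described as nondiabetic. The series title places the work in islet inflammation, the growth of pancreatic ducts, and pancreatitis in type 2 diabetes. The labels give no tissue, age or promoter of the transgene, and do not say that the extracts came from separate animals, so the spread between the 2 arrays may be technical. The messenger RNA was converted to cDNA and amplified by PCR before labelling. Because the dyes were never exchanged, genotype and dye cannot be told apart in any value below.

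Glycolysis splits glucose into pyruvate in the cytosol. Phosphofructokinase is its main control point, aldolase cuts the resulting sugar bisphosphate, and glyceraldehyde-3-phosphate dehydrogenase, phosphoglycerate kinase, phosphoglycerate mutase and enolase carry the fragments to phosphoenolpyruvate, from which pyruvate kinase makes pyruvate. Lactate dehydrogenase turns pyruvate into lactate. In mitochondria pyruvate is instead oxidized to acetyl-CoA, which leaves as citrate and is released again in the cytosol by ATP citrate lyase for fatty acid and sterol synthesis. In beta cells most glucose carbon enters the mitochondria, which couples glucose to insulin release, and Ldha is known as a gene that healthy beta cells keep very low.

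The genes fell on both sides of 0. Pfkl, Pfkfb3 and Pgk1 were at least 2-fold higher in HIP on both arrays, Acly and Pgam1 were at least 2-fold lower on both, and Gapdh, Eno1, Aldoa and Ldha did neither. A log2 ratio, HIP over wild type, of 1 stands for 2-fold. Over all genes tested, 2.69% were at least 2-fold higher on both arrays, 2.47% were at least 2-fold lower on both, and 5.56% were at least 2-fold apart in opposite directions, which no gene of the 9 was. The median of the mean log2 ratios was -0.96 over the 9 enzymes, against 0.02 over all genes tested. This middle value is that of Ldha, whose ratios had opposite signs, and the medians of the 9 on each array were -0.01 and 0.48. With ratios on 2 arrays, limma's test called 0 of 27872 genes (0%) at an adjusted p under 0.05, with 0.932 as the lowest adjusted value. Before adjustment, limma called 912 genes, or 3.27% of those tested, at 0.05, and 4 of the 9 enzymes were among them. These were Acly, Pfkfb3, Pgk1 and Pgam1. The enzymes were chosen with earlier results of these data known, so their counts beside the shares of all genes are no test.

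The levels of the 2 HIP extracts lay above those of both wild-type extracts for Pfkl, Pfkfb3, Pgk1 and the brighter Gapdh probe (not its second probe), and below them for Acly, Pgam1 and Aldoa. For Eno1 and Ldha the genotypes overlapped. Among all genes tested, 15.9% had both HIP levels above both wild-type levels and 15.1% had them below. The panels of levels by extract show these orders for every probe.

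**Figure D1:**
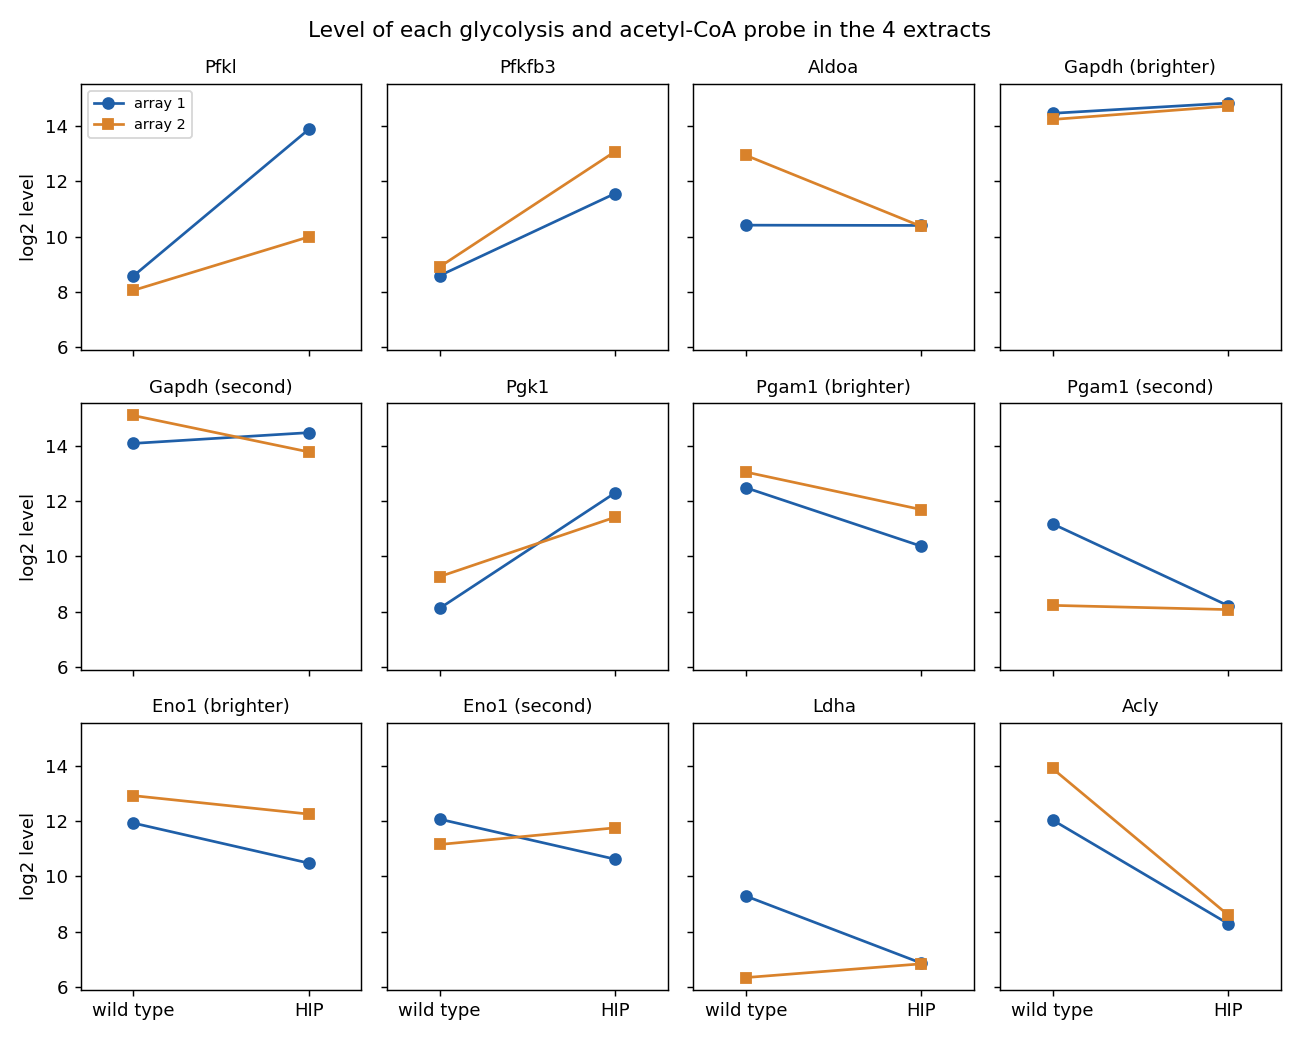
Normalized log2 level (vertical axis) of each of the 12 probes in wild type and HIP (horizontal axis); blue circles are array 1, orange squares array 2, and a line joins the extracts that shared an array. Both lines climb for Pfkl, Pfkfb3 and Pgk1 and descend steeply for Acly, while those of the second Gapdh probe, the second Eno1 probe and Ldha run in opposite directions; levels of different probes are not comparable.

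Promoter sequence was available for 8 of the 9 genes (not Pgk1), as 11 windows of 250 bases upstream of annotated starts (RefSeq, GRCr8). Letters of known control elements of glycolytic genes were searched on both strands. These were ACGTG, a form of the core that hypoxia-inducible factors recognize, and the E-box CACGTG, bound by Myc and related factors. CACGTG contains ACGTG. The other form of the hypoxia core, GCGTG, was not counted. ACGTG occurred in windows of 5 of the 8 genes (Pfkfb3, Pgam1, Gapdh, Aldoa and Ldha), that is in 5 of 11 windows, against 16.6% of 33469 windows of all genes. CACGTG occurred in windows of 2 genes, Pfkfb3 and Ldha, against 5.59% of all windows. Windows of Pfkfb3, Ldha and Acly are shown because these genes had, in turn, both ratios high, ratios of opposite sign and both ratios low. Capitals mark the matches, on either strand, and a match is a description of the letters only. The windows lie at chr17:71944683-71944932 on the plus strand (Pfkfb3), chr1:106507842-106508091 on the plus strand (Ldha) and chr10:85963632-85963881 on the minus strand (Acly). The Pfkfb3 and Acly windows precede starts that lie within the longest span of their gene.
Pfkfb3: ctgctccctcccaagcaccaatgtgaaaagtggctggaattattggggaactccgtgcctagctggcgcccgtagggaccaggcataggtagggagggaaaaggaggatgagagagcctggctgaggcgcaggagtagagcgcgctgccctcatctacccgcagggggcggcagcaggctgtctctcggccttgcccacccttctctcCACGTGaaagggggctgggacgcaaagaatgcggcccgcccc
Ldha: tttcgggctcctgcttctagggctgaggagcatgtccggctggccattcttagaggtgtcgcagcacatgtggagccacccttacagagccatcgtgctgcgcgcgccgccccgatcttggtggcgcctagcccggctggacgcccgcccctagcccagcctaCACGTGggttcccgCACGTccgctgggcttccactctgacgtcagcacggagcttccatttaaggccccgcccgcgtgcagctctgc
Acly: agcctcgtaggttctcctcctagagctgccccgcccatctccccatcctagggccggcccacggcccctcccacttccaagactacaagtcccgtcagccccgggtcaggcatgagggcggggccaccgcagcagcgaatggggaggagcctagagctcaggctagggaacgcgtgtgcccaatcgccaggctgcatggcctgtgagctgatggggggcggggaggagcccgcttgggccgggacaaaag
The genes with ACGTG included 1 with both ratios at least 2-fold up (Pfkfb3), 1 with both at least 2-fold down (Pgam1) and 3 with neither. The Acly window held no match to ACGTG, and Pgk1, which had no window, is not in this tally. The letters GCGTG do occur in the Acly window, and on either strand in windows of Pfkl and Eno1. The tally thus covers 1 form of the core and does not show that these genes lack it.

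Pfkl encodes the liver-type subunit of phosphofructokinase, which commits sugar to glycolysis (RefSeq, GRCr8, chromosome 20, 10663907 to 10685967). Its normalized log2 level was 8.58 in wild type 1 and 8.06 in wild type 2, and 13.88 in HIP 1 and 9.99 in HIP 2. The wild-type extracts lay close together and both HIP extracts lay above them, but far from each other. The log2 ratio was 5.30 on array 1 and 1.93 on array 2, a mean of 3.62 ± 2.38 (SD, n = 2), the 42nd highest of 27872 genes. The ratios differed by 3.37, more than the lower of them. The adjusted p of limma was 0.932.

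Pfkfb3 makes fructose 2,6-bisphosphate, the strongest known activator of phosphofructokinase (chromosome 17, 71893320 to 71974526). Its log2 level was 8.59 and 8.91 in wild type 1 and 2, against 11.56 and 13.08 in HIP 1 and 2. Every HIP level was above every wild-type level, and the gap between genotypes exceeded the gap within either of them, which was 0.32 for wild type and 1.52 for HIP. The ratios of 2.97 and 4.17 gave a mean of 3.57 ± 0.85 (SD, n = 2; adjusted p = 0.932, limma), the 44th highest. Among its relatives, Pfkfb2 was 0.16 and 0.20, Pfkfb1 was -1.74 and -0.20, and Pfkfb4 was -2.04 and -0.34 on arrays 1 and 2.

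Among the other phosphofructokinase subunits, the platelet form Pfkp had log2 ratios of 0.51 and 4.40, with wild type 1 not well above background. The muscle form Pfkm was not well above background in any of the 4 extracts and was not tested. Of the 3 subunits, Pfkl alone was well above background in all 4 extracts, so the subunits could not be compared.

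Aldoa, aldolase A (chromosome 1, 190832820 to 190838021), had log2 levels of 10.42 in wild type 1, 12.94 in wild type 2, 10.41 in HIP 1 and 10.37 in HIP 2. A single extract, wild type 2, stood above the other three, which were within a few hundredths of each other. The ratio was -0.01 on array 1 and -2.57 on array 2, a mean of -1.29 ± 1.81 (SD, n = 2; adjusted p = 0.932, limma). Its order of levels, HIP below wild type, thus rests on a difference of 0.01 on array 1.

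Gapdh, glyceraldehyde-3-phosphate dehydrogenase, is often used as a reference transcript (chromosome 4, 159648592 to 159653436). Its brighter probe was at log2 levels of 14.46 and 14.24 in wild type 1 and 2 and at 14.83 and 14.72 in HIP 1 and 2. The 4 extracts were close together, with HIP slightly above wild type on each array. The ratios were 0.37 and 0.48 (0.43 ± 0.08, SD, n = 2; adjusted p = 0.933, limma). The second probe, with 10 spots, was at 14.09 and 15.09 in wild type and at 14.47 and 13.78 in HIP. Here the genotypes were on different sides on the 2 arrays, and the ratios were 0.39 and -1.31 (-0.46 ± 1.20, SD, n = 2). The probes thus gave like ratios on array 1 and ratios of opposite sign on array 2. The direction of Gapdh thus depended on the probe. Its mean stayed above 0 in each setting that kept the brighter probe, and was -0.018 when both probes were averaged. It was -0.14 in the authors' deposited table, which lists Gapdh under its second probe, with ratios of 0.34 and -0.62.

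Pgk1, phosphoglycerate kinase, makes the first ATP of glycolysis (chromosome X, 75336988 to 75352962). Its log2 level was 8.13 in wild type 1 and 9.27 in wild type 2, and 12.30 in HIP 1 and 11.42 in HIP 2. Both HIP extracts were above both wild-type extracts. The ratios of 4.17 and 2.15 gave a mean of 3.16 ± 1.43 (SD, n = 2; adjusted p = 0.932, limma), the 82nd highest of all genes tested. The 10 spots show how well each array measured this: their ratios ran from 4.03 to 4.24 on array 1 (SD 0.06) and, over the 9 spots without an outlier mark, from 2.00 to 2.26 on array 2 (SD 0.10). The 2 arrays differed by 2.03, far more than the spots of either. Its testis-specific copy Pgk2 had ratios of -0.20 and -0.23.

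Pgam1, phosphoglycerate mutase 1, moves the phosphate of phosphoglycerate (RefSeq, GRCr8, chromosome 1, 250673152 to 250680762). Its brighter probe was at log2 levels of 12.48 and 13.05 in wild type and at 10.37 and 11.69 in HIP. Both HIP extracts were below both wild-type extracts, with ratios of -2.11 and -1.35 and a mean of -1.73 ± 0.54 (SD, n = 2; adjusted p = 0.932, limma). The second probe read 11.18 in wild type 1 and 8.23 in wild type 2, against 8.23 in HIP 1 and 8.08 in HIP 2, so that wild type 1 stood alone. Its ratios were -2.95 and -0.15 (-1.55 ± 1.98, SD, n = 2). The array's own annotation places the brighter probe on chromosome 6 and the second on chromosome 10, neither of which is the chromosome of Pgam1 in RefSeq. Which transcripts they detect was not tested. The same annotation lists further RefSeq transcripts for the probes of Pgk1 (2), Gapdh (3 for each probe) and Ldha (2) and for the brighter Eno1 probe (1), and any share of near-identical copies in their signal was not tested. 

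Eno1, enolase 1, makes phosphoenolpyruvate (chromosome 5, 166002867 to 166014252). Its brighter probe was at log2 levels of 11.92 and 12.91 in wild type and at 10.47 and 12.25 in HIP. Each HIP extract was below the wild type of its own array, yet HIP 2 was above wild type 1. The ratios were -1.45 and -0.67, a mean of -1.06 ± 0.55 (SD, n = 2; adjusted p = 0.932, limma). The second probe was at 12.06 and 11.15 in wild type and at 10.62 and 11.75 in HIP, with ratios of -1.45 and 0.60. As for Gapdh, the 2 probes gave nearly the same ratio on array 1 and opposite signs on array 2. The neuronal and muscle forms, Eno2 and Eno3, had ratios of 0.33 and 0.40, and of -1.86 and 0.25.

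Ldha, lactate dehydrogenase A, makes lactate from pyruvate (chromosome 1, 106508092 to 106517512). Its log2 level was 9.28 in wild type 1, 6.34 in wild type 2, 6.86 in HIP 1 and 6.83 in HIP 2. Wild type 1 stood above the rest, and in wild type 2 none of the 10 spots was well above background, so that 1 of the 2 wild-type extracts gave a level. The scanner's processed signal intensity, as a median of spots, was 2595 and 22.3 in wild type 1 and 2, and 330 and 176 in HIP 1 and 2. The log2 ratios were -2.42 and 0.50, a mean of -0.96 ± 2.06 (SD, n = 2; adjusted p = 0.938, limma). The 10 spots lay close together on each array, from -2.64 to -2.31 on array 1 and from 0.36 to 0.61 on array 2. The scanner's own ratios of processed signals were -2.97 and 2.97 on the log2 scale. Its error model for a single array gave p-values of 1.43e-17 or less on array 1 and 2.44e-06 or less on array 2, in opposite directions; these compare the 2 extracts of an array, not the genotypes.

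Acly, ATP citrate lyase, releases acetyl-CoA from citrate in the cytosol (chromosome 10, 85912402 to 85964605). Its log2 level was 12.03 and 13.89 in wild type 1 and 2, and 8.29 and 8.61 in HIP 1 and 2. Both HIP extracts were far below both wild-type extracts and within 0.32 of each other. The ratios of -3.74 and -5.29 gave a mean of -4.52 ± 1.09 (SD, n = 2; adjusted p = 0.932, limma), rank 27850 of 27872 from the highest. The difference was carried by a single probe with 1 spot on each array.

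**Figure D2:**
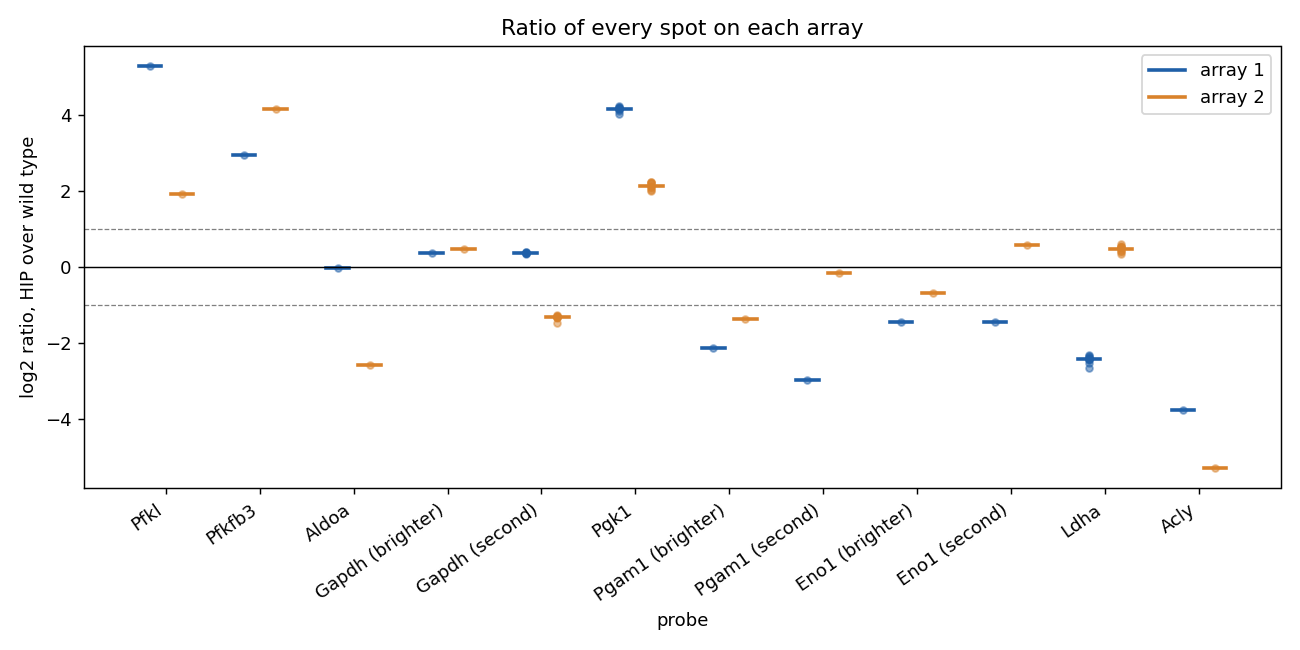
Log2 ratio, HIP over wild type (vertical axis), for each spot of the 12 probes (horizontal axis); points are spots, bars the mean of the spots used on array 1 (blue) and array 2 (orange), and dashed lines mark 2-fold. Within the probes with 10 spots the points nearly coincide, while the bars of the 2 arrays are 1.70 (second Gapdh probe), 2.03 (Pgk1) and 2.92 (Ldha) apart.

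The error of a spot was thus small beside the gap between arrays. Over 263 probes with 10 spots, the median SD of the ratio over the spots was 0.076 on array 1 and 0.083 on array 2, while the median SD between the 2 arrays over all genes tested was 0.63. Across all genes tested the ratios of the arrays had hardly any relation (Pearson's r -0.01 and Spearman's rho -0.0090), given as a description, since genes are not independent replicates. The SD of the ratios over genes was 1.36 on array 1 and 1.41 on array 2. Of the extracts, wild type 2 was the dimmest: 73.6% of its spots were well above background, against 83.5% to 85.0% in the other three, and no spot was saturated in any.

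Markers of cell types differed between the extracts as well. The summed processed signal of the beta cell marker list was 151128 and 164581 in wild type 1 and 2 and 70954 and 86648.5 in HIP 1 and 2, so that both HIP extracts were below both wild-type ones. Of its 7 genes on the array, 5 were well above background in all 4 extracts. Of the 6 measured, the insulin genes Ins1 and Ins2 and the transcription factor Mafa were lower on both arrays (Ins1 at -1.18 and -1.02), Iapp was higher on both (0.51 and 0.10), and Pdx1 (-0.37 and 0.12) and Slc30a8 (0.00 and -0.52) differed. Acinar markers, 12 of 12 well above background throughout, summed to 167146 and 228899 in wild type and to 139695 and 213615 in HIP. Immune markers summed to 21502 and 40262 in wild type and to 28889 and 18526 in HIP, with genotypes on different sides on the 2 arrays. Ductal markers summed to 27420 and 11758 in wild type and to 12374 and 11803 in HIP, and adipose and liver markers to 36225 and 8778 in wild type and to 9934 and 13653 in HIP. The part of cell composition in the enzyme ratios was not tested, and in such extracts fewer cells of a type and less RNA per cell cannot be told apart.

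The wider pathway was described with 74 genes in 5 lists, of which 70 were on the array and 64 were measured. Both ratios were above 0 for 24 of these, both were below 0 for 19, and 21 had ratios of different sign; over all genes tested 27.1% were higher on both and 23.1% lower on both. At 2-fold on both arrays, 6 were higher, 2 were lower and 2 went opposite ways, and none passed limma's test after adjustment. Over all genes tested, 2.69% were 2-fold higher on both arrays, 2.47% were lower and 5.56% went opposite ways. The 9 enzymes made up 3 of the higher and 2 of the lower genes. The 55 other measured genes held 3 higher, 0 lower and 2 that went opposite ways. The median of the mean log2 ratios of the 64 genes was -0.18, with medians of 0.04 on array 1 and 0.14 on array 2. Under other scalings the split moved. Of all genes tested that were 2-fold apart the same way, 52.2% were higher in HIP after loess, 84.9% with each array centred on its median instead, and 98.0% with no normalization, the last of which raised the median ratio over all genes tested to 0.81 and 1.22 on arrays 1 and 2. The pathway count of 6 higher and 2 lower became 12 and 1 with median centring, and 22 and 1 without normalization, counted on the ratios as scaled. In both of these settings Gapdh joined Pfkl, Pfkfb3 and Pgk1 among the enzymes at least 2-fold higher on both arrays, and Pgam1 was no longer 2-fold lower on both, as it was not when its 2 probes were averaged; Acly remained 2-fold lower in each.

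Of 26 measured glycolysis enzymes, 11 were higher on both arrays, 8 were lower and 7 differed. The list includes the chosen enzymes other than Pfkfb3 and Acly. Over all genes tested, 27.1% were higher on both arrays and 23.1% were lower, shares that also belong beside the counts of the lists below. Besides Pfkl and Pgk1, the glycolysis enzymes at least 2-fold higher on both arrays included Ldhc. Ldhc, a lactate dehydrogenase known from testis, was at log2 levels of 10.18 and 8.23 in wild type and at 12.50 and 10.27 in HIP, with ratios of 2.33 and 2.05. Neither of the widely expressed hexokinases was 2-fold apart on either array. Hk1 had ratios of -0.01 and -0.91 from its brighter probe and 0.16 and -0.16 from the other. Hk2 had 0.71 and 0.34.

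At the lower end of glycolysis, Pkm, the pyruvate kinase of most tissues, had ratios of 0.58 and 3.37, and Pklr, the liver and red cell form, 1.21 and 0.33. Both were higher on each array without being 2-fold on both. Triose phosphate isomerase, Tpi1, went opposite ways at -1.57 and 1.15. Ldhb, the heart-type lactate dehydrogenase, was at -0.16 and 0.13.

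**Figure D3:**
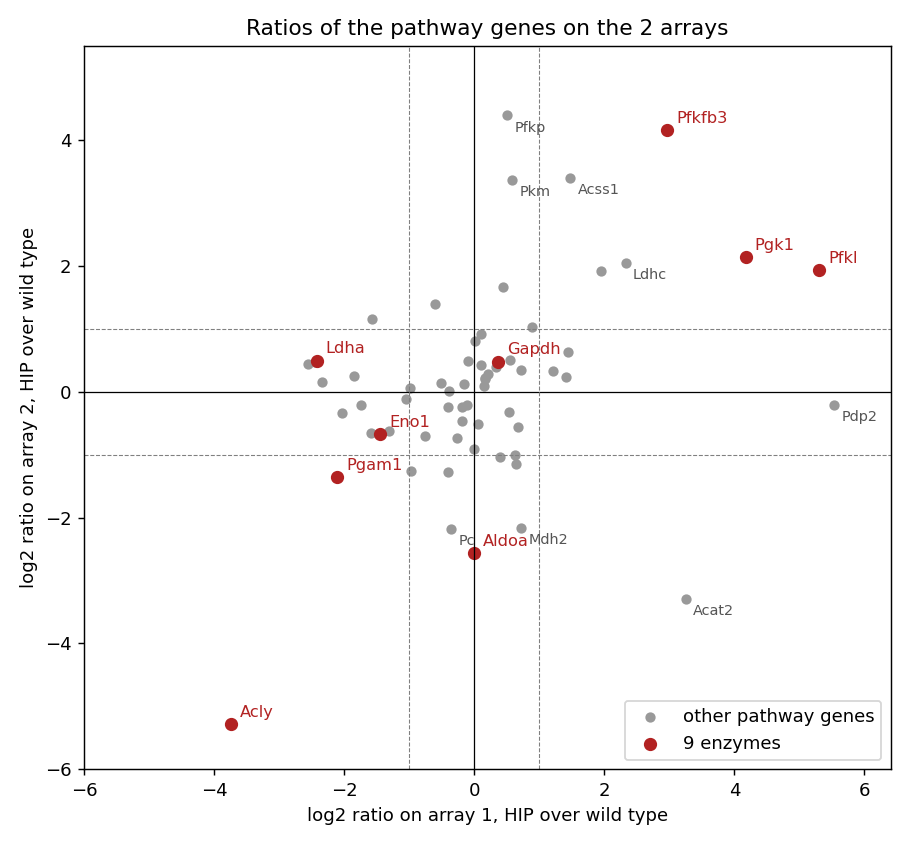
Log2 ratio, HIP over wild type, on array 1 (horizontal axis) and array 2 (vertical axis) for the 64 measured pathway genes; red points are the 9 enzymes, grey points the others, and dashed lines mark 2-fold. Pfkl, Pfkfb3 and Pgk1 stand at the upper right with Acss1 and Ldhc among the grey points, Acly stands far apart at the lower left, and most other genes lie near 0 or along 1 axis.

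The carriers of glucose and lactate gave no common direction, with 1 of 6 measured genes higher on both arrays, 1 lower and 4 that differed. The glucose transporter of most cells, Slc2a1, had ratios of 0.06 and -0.51, and Slc2a2, the transporter of beta cells and liver, 0.65 and -1.14. The lactate carrier Slc16a1 was not well above background in any extract. Of 11 measured genes of pyruvate entry and oxidation, 3 were higher on both arrays, 4 lower and 4 differed, and 0 were 2-fold apart the same way. Pyruvate carboxylase, Pc, was at -0.35 and -2.18, and Pdha1, a subunit of pyruvate dehydrogenase, at -0.99 and 0.07.

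Around Acly, 7 of 15 measured genes of citrate export and acetyl-CoA use were higher on both arrays, 3 were lower and 5 differed. Acly was the 1 gene of this list at least 2-fold lower on both arrays. Citrate synthase, Cs, which makes the citrate, was at -0.97 and -1.27 from its brighter probe but 0.32 and 1.73 from the other. The citrate carrier Slc25a1 was at -0.18 and -0.46. Of the users of cytosolic acetyl-CoA, Acaca, which makes malonyl-CoA, was at -0.52 and 0.14, and Fasn, fatty acid synthase, was at 1.40 and 0.24. The acetate-activating enzymes make acetyl-CoA without citrate. The cytosolic Acss2 was at 0.55 and 0.50, and the mitochondrial Acss1 was at 1.48 and 3.40, although its 2 other probes gave 3.27 and -0.33, and -0.14 and -0.59. Acat2, which joins acetyl-CoA units, had 3.26 and -3.30 from its brighter probe, while its other probe was high on both arrays (1.50 and 1.73).

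With the ratios taken as each setting scaled them, the mean log2 ratios of Pfkl, Pfkfb3, Pgk1, Pgam1 and Acly kept their sign in all 10 alternatives, each array alone included, as the plot of processing settings shows. The range was 1.93 to 5.30 for Pfkl, 2.97 to 5.06 for Pfkfb3, 2.15 to 4.68 for Pgk1, -2.11 to -0.16 for Pgam1 and -5.29 to -3.02 for Acly. Several alternatives could not turn a sign. The filter changes and probe averaging left Pfkl, Pfkfb3, Pgk1 and Acly unchanged, since each had 1 probe that passed every filter. For these genes the authors' table nearly repeated the scanner's processed signals. Each array alone had to keep the sign of genes with both ratios the same way. With no normalization Pgam1 was at -0.71 on array 1 and 0.39 on array 2, and the means of Eno1 and Aldoa turned to 0.50 and 0.23. Taken relative to the median of all genes tested, which that setting had raised, Pgam1 was at -1.25, Eno1 at -0.59 and Aldoa at -0.86. In the authors' deposited table the means were 4.01 for Pfkl, 3.81 for Pfkfb3, 3.43 for Pgk1 and -4.77 for Acly, and -0.02 for Ldha.

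**Figure D4:**
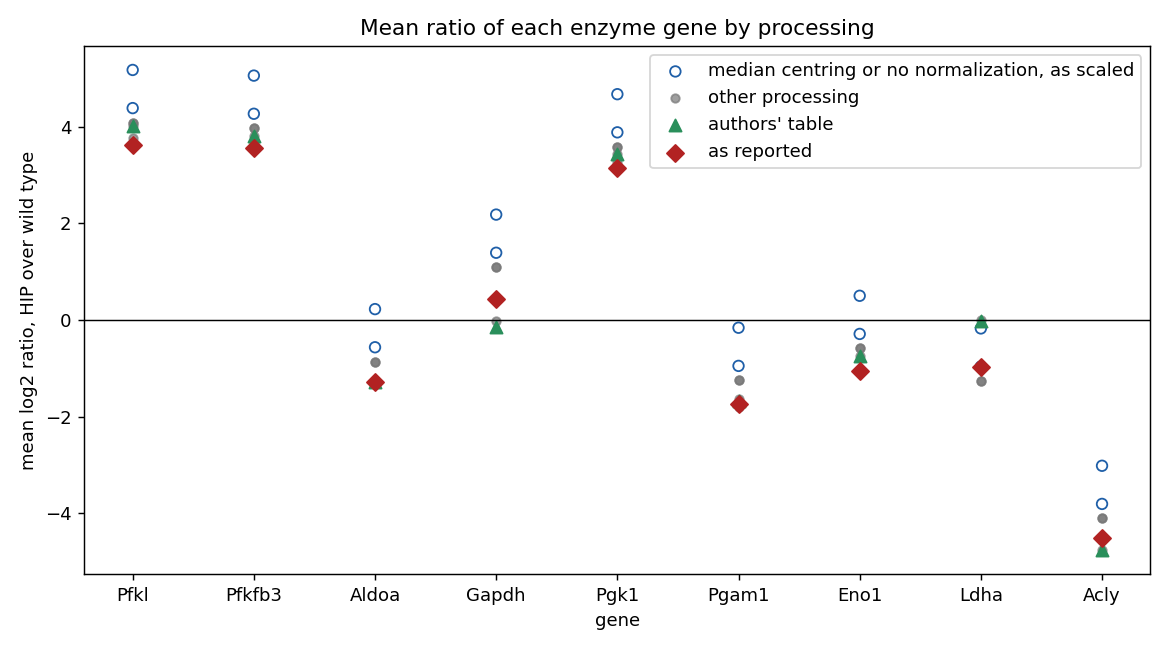
Mean log2 ratio of HIP over wild type on the 2 arrays (vertical axis) for each gene (horizontal axis); red diamonds are the values as reported, green triangles the authors' deposited table, grey points the other ways of processing both arrays (for median centring and no normalization, after subtracting the all-gene median), and open blue circles those 2 settings as scaled. Pfkl, Pfkfb3, Pgk1 and Acly stay far from 0 in each, while Gapdh, Eno1 and Aldoa lie on both sides of 0. Ldha reaches -0.0021 with the scanner's processed signals and -0.02 in the authors' table. The authors' table lists Gapdh, Pgam1 and Eno1 under their second probes.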

How the data were processed

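Two-colour signals of 2 Agilent rat arrays (design 014879) were quantified by the authors with Feature Extraction (version 9.5.1.1, as the file headers state). Per the file headers, the deposited intensities are each spot's mean and local background in both dyes and a processed signal, which the file headers describe as background-subtracted and dye-normalized. The authors' log10 ratios (Cy5 over Cy3) and the p-values of the scanner's error model were deposited beside them, and the authors' deposited table holds log10 ratios, printed here as log2. The genome build behind the annotation was not given in the sources used here.

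The analysis used limma 3.58.1 under R 4.3.3: normexp background correction (offset 50), loess within arrays with control spots at weight 0, outlier-marked spots left out, and spots of a probe averaged. Log2 ratios of the deposited intensities are HIP over wild type. Levels combine these ratios with brightness scaled between arrays. Probes well above background on both arrays in the same dye were kept (33211 of 41012), the brightest stood for its gene, and 27872 genes were tested against 0 (limma's lmFit, then eBayes; two-sided) with Benjamini-Hochberg adjustment at 0.05. Each array pairs 1 extract of each genotype, so the ratio already carries the pairing. Code was tested on simulated data. Names, places and promoters come from RefSeq (GRCr8) tables.

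Named genes were the 9 enzymes, pathway genes at least 2-fold apart the same way on both arrays, and a fixed set. Pfkfb1, Pfkfb2, Pfkfb4, Pgk2, Eno2, Eno3 and Acat2 were named after their values were seen. A gene that this rule names is not reported here. The enzymes, lists and tests were chosen with earlier results of these data known. Alternatives changed the background correction, normalization, filter, probe choice, variance prior and arrays used. The 2 ratios limit the precision.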

Additional observations from a re-analysis of the deposited data

How the results depend on the processing

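With 2 ratios and no exchange of dyes, no call could be checked beyond these arrays. limma called 0 genes at an adjusted p under 0.05 in every setting that gave a test, with 835 (robust prior) to 4708 (no normalization) genes at an unadjusted p under 0.05; the trended prior gave 860. In the fit with no replicate block, which breaks the pairing by array, 0 genes were called and 1087 had an unadjusted p under 0.05. The count of 8 pathway genes at least 2-fold apart the same way became 13 with median centring, 23 with no normalization, 12 (8 higher, 4 lower) with the scanner's processed signals and 5 with the mean of all probes; the cause was not tested. Of 89 values of the 9 enzymes under alternatives, with ratios as scaled, 84 kept their sign. These include settings that could not change a value, such as probe averaging for a gene with 1 probe. With no normalization Eno1 turned to 0.50 and Aldoa to 0.23; both stayed below 0 relative to the median of all genes, where no normalization and median centring give equal values by construction. Gapdh turned to -0.018 with the mean of its probes and to -0.14 in the authors' deposited table, which lists it under its second probe. Ldha turned to 0.50 without replicate 1 (array 1) and was -2.42 without replicate 2. It has no value where both dyes of both arrays had to be well above background. Each array alone leaves no residual degrees of freedom and so gave values with no test.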
